A study of Mus musculus with 5 samples.

Results

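The 7 genes described here, Snhg1, Snhg3, Snhg6, Snhg8, Snhg12, Gas5 and Zfas1, are noncoding host genes of small nucleolar RNAs (snoRNAs), found by Ensembl identifier among the 31053 or 32285 genes of the gene lists of 5 single-cell RNA-sequencing libraries. They had been selected on values from these same libraries, namely their levels in each library and across barcodes with a low or high share of Malat1, so those levels are given as a description. All libraries came from C57BL/6 mice and their submandibular salivary gland, either as mouse salivary gland organoids (mSGOs) grown in Matrigel in WRY medium or as fresh tissue. The 7-day mSGOs were non-irradiated controls, or received 7 Gy of photons or 7 Gy of plateau protons on day 5 and were collected on day 7. They derived from 4 animals of 8 to 12 weeks of age, the organoids of each condition were pooled before the run, and 45000 cells negative for propidium iodide were sorted for each sample. The 11-day mSGOs were a non-irradiated control from other animals in a separate run, and the fresh tissue came from untreated mice of 8 to 12 weeks. Each group was a single library, so there is no replicate error, the 95% intervals below cover counting error only, and no difference between conditions was tested.

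snoRNAs are short nucleolar RNAs that guide chemical modification of ribosomal RNA, box C/D snoRNAs for 2'-O-methylation and box H/ACA snoRNAs for pseudouridylation. In mammals most are cut from the introns of host genes. Some hosts, such as many ribosomal protein genes, encode proteins, whereas others, such as Gas5, carry little coding information in their exons. The spliced RNA of such noncoding hosts reaches the ribosome, and several are kept low by nonsense-mediated decay. Hosts of this class, like ribosomal protein genes, often begin with a run of pyrimidines, the 5' terminal oligopyrimidine motif, through which translation responds to growth signals. The gene lists count the host and have no entry for the 30 annotated snoRNA genes inside the 7 hosts. All of these but Snora73a and Snora73b lie inside an exon of some host model in GENCODE vM39, which need not be the annotation used for the counts. Whether reads there were counted to the host was not measured.

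In GENCODE vM39 (GRCm39) all 7 genes were long noncoding RNA genes with at least 1 snoRNA gene inside them on the same strand. The sequences of 4 of the snoRNAs are printed to make clear what the hosts carry. Capitals mark the C box and the last D box of the box C/D snoRNAs Snord87 (in Snhg6), Snord99 (in Snhg12) and Snord47 (in Gas5), and the ACA box of the box H/ACA snoRNA Snora24 (in Snhg8).
Snord87: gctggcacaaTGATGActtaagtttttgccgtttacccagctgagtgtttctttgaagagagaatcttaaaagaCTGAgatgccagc
Snord99: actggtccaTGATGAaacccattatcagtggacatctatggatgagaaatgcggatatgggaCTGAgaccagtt
Snord47: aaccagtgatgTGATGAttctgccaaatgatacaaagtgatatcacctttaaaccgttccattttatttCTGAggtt
Snora24: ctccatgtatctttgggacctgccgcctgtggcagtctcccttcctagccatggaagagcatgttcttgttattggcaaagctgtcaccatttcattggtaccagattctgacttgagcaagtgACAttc
The box C/D snoRNAs were 87, 74 and 77 bases long, and the first and last bases of each can pair with each other, as in Snord87, where gctggc opens and gccagc closes the RNA. Snora24 was 130 bases long and its ACA box lay 3 bases from the end.

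The hosts differed in how many snoRNA genes they hold and in what overlaps them. Gas5 (chr1:160861793-160866118, plus strand) held 10 annotated snoRNA genes and Snhg1 (chr19:8700319-8703812, plus strand) held 8. Snhg12 (chr4:132035905-132038762, plus strand) held 5 and Zfas1 (chr2:166903619-166907799, plus strand) held 3. The counts include Snord80 in Gas5 and Snora16a in Snhg12 each with 2 overlapping entries at a single locus. Snhg3 (chr4:132075325-132080997, minus strand) held 2, Snora73a and Snora73b, and shared its strand with Rcc1, so reads of Snhg3 and Rcc1 could be split by the counting. Snhg8 (chr3:123301192-123302578, minus strand) and Snhg6 (chr1:9926809-10014504, minus strand) held 1 each. The GENCODE model of Snhg6 spanned 87696 bases and the RefSeq model 2094 bases, and on the opposite strand it overlapped Mcmdc2 and Sgk3. Snhg1 overlapped Slc3a2 on the opposite strand, and Zfas1 overlapped Znfx1 there and, on its own strand, Gm56406.

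Promoters of 6 of the 7 genes, in 7 windows of 85 bases that ran from 45 bases before the annotated start, were in the RefSeq table (GRCm38.p6). A run of at least 6 pyrimidines (C or T) that reached into the bases from 3 before to 5 after the start stood in 4 of the 7 windows, those of Snhg1, Snhg8 and Snhg12 and the second of the Gas5 windows, against 17.9% of the 32851 windows of all genes. The same 4 windows held the letters TATA, which read the same on both strands, between 45 and 16 bases before the start, against 6.72% of all windows. The windows of Snhg12 (chr4:132308633-132308717, plus strand) and of a second start of Gas5 (chr1:161035121-161035205, plus strand), with the pyrimidine run in capitals, are shown as examples of this start-site type.
Snhg12: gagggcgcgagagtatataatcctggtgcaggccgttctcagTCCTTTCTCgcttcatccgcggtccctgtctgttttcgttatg
Gas5: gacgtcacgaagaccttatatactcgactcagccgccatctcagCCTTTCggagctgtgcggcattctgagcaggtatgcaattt
The run of Snhg12 was 9 and that of Gas5 6 bases long. These matches describe letters in a window and are not measured initiation sites.

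The kept barcodes numbered 6494 in the control, 15610 in the photon and 15325 in the proton 7-day library, 9484 in the 11-day library and 1402 in tissue, where 11597 of 13547 barcodes had fewer than 200 genes. Their unique molecular identifiers (UMIs) summed to 15804359, 25349615, 24792032, 32070703 and 5932095. The median barcode held 898.5, 1049 and 965 UMIs in the 7-day libraries against 3025 at 11 days and 2385.5 in tissue, where it held 278 genes. Between 3 and 69 kept barcode sequences were shared by each pair of libraries, at most 0.642% of a library. All 8 duct and all 7 basal duct markers were at 20 CPM (UMIs per 1000000 UMIs of the library) or more in every mSGO library, as were 8 of 9 acinar markers in tissue. Erythroid markers summed to at most 0.468 CPM in the mSGO libraries, T and NK cell markers to at most 0.717 and macrophage markers to between 3.52 and 26.0, most of it Cd68 in the 7-day libraries. Tissue held only 1 of the 7 basal duct markers at that level, together with erythroid markers summing to 3060 CPM.

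Only Snhg6 (ENSMUSG00000098234) and Snhg12 (ENSMUSG00000086290) were in the gene list of the 7-day and tissue libraries, whereas the 11-day list held all 7 genes. The other 5 genes were therefore measured in the 11-day library alone, and nothing can be said here of their level in the other 4 libraries. Snhg6, the host of Snord87, stood at 128 CPM (95% interval 122 to 134, 2021 UMIs) in control 7-day mSGOs, 125 (121 to 129, 3168 UMIs) after photons, 97.7 (93.8 to 102, 2422 UMIs) after protons, 15.5 (14.2 to 17.0, 498 UMIs) in 11-day mSGOs and 7.75 (5.68 to 10.3, 46 UMIs) in tissue. Control and photon overlapped in their counting intervals, while each of the other neighbours in this order was apart. In sums over a library, fewer cells with a transcript and less of it per cell cannot be told apart.

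Snhg12 hosts Snord99 and the box H/ACA snoRNAs Snora16a, Snora44 and Snora61. Its level was 81.1 CPM (76.7 to 85.6, 1281 UMIs) in control 7-day mSGOs, 76.6 (73.2 to 80.1, 1941 UMIs) after photons, 78.6 (75.1 to 82.1, 1948 UMIs) after protons, 33.6 (31.6 to 35.7, 1078 UMIs) in 11-day mSGOs and 5.23 (3.55 to 7.42, 31 UMIs) in tissue. The 7-day libraries overlapped for Snhg12, and the 11-day and tissue libraries lay below them. The genes also changed order: Snhg6 supplied 61.2% of the UMIs of the pair in the control, 62.0% in the photon and 55.4% in the proton library and 31.6% in the 11-day library. In tissue its share was 59.7% (47.9 to 70.8), an interval that holds equal shares.

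At 11 days the 7 genes spanned a wide range. These are UMI levels, which count the 3' end of each molecule and are not divided by length. Gas5, whose snoRNAs include Snord47 and whose RNA is known as a growth-arrest transcript, led with 530.2 CPM (522 to 538). Snhg1 followed at 83.3 (80.2 to 86.5), then Zfas1 at 57.3 (54.7 to 60.0), Snhg8 at 43.2 (40.9 to 45.5), Snhg3 at 37.4 (35.3 to 39.5), Snhg12 at 33.6 and Snhg6 at 15.5. Only Snhg3 and Snhg12 overlapped in their intervals. Gas5 made up 66.2% of the 25674 UMIs of the 7 genes, Snhg1 10.4%, Zfas1 7.16% and Snhg8 5.39%, whereas Snhg6, the higher gene of the pair in the 7-day libraries, made up 1.94%.

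**Figure D1:**
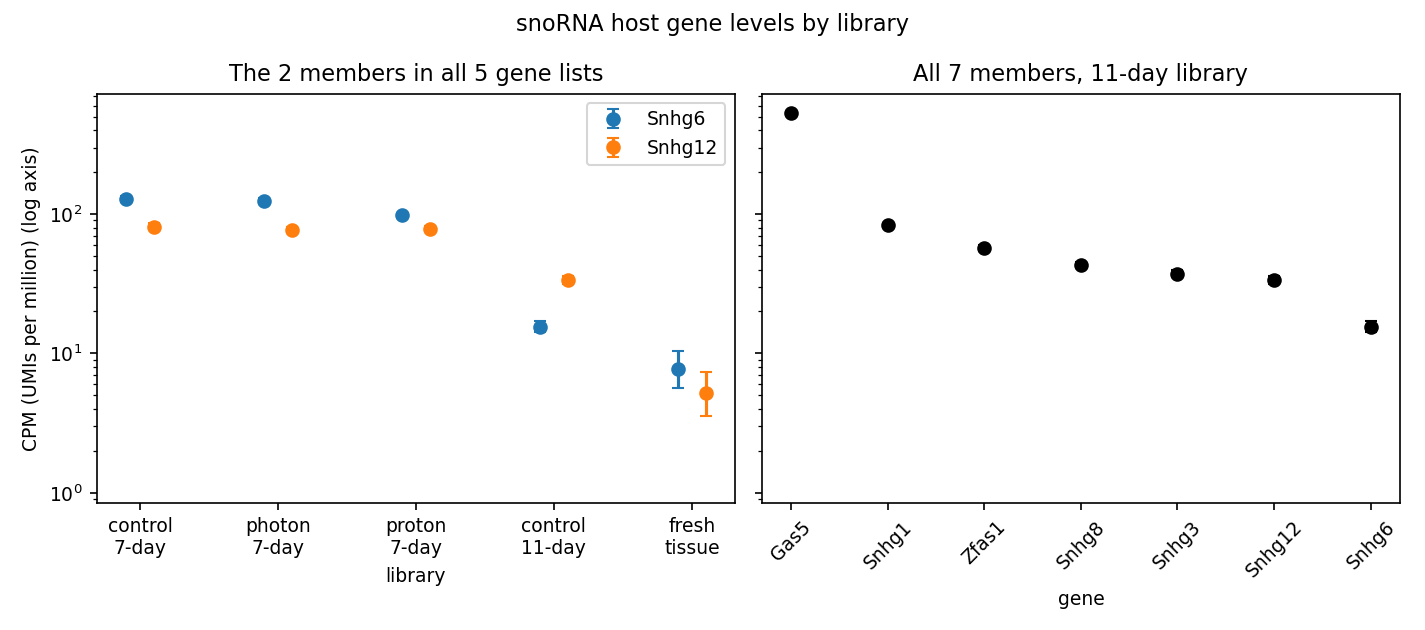
CPM on a log axis with 95% counting intervals, for Snhg6 and Snhg12 in the 5 libraries (left) and for all 7 genes in the 11-day library (right). Snhg6 stands above Snhg12 in the 7-day libraries and below it at 11 days, their intervals overlap in tissue, and Gas5 at 530.2 stands far above the other genes.

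The first comparison asks what photons changed 2 days after irradiation. Snhg6 differed from control by -0.03 (-0.11 to 0.05) and Snhg12 by -0.08 (-0.18 to 0.02) on the log2 scale of CPM plus 1, and both intervals held 0. The sign for Snhg6 depended on the barcodes used, at -0.36 in those of at least 2500 genes, 0.19 with each barcode thinned to 1000 UMIs. Past 2-fold were 0 of 2 genes, against 0.664% of the 4369 genes with enough counts, whose median was 0.08. Other noncoding hosts in both gene lists were lower in 4 of 4 measured cases, with a median of -0.22. They were Snhg20 at -0.77, Snhg16 at -0.37, Epb41l4aos at -0.06 and Snhg18 at -0.05. Snhg20 reached the limit of 20 CPM in control only, at 20.6, so its entry rests on the group where it was high. Ribosomal protein genes had a median of -0.09, with 58 of 75 lower. The proteins that bind snoRNAs were near the median of all genes, 9 of 12 higher and a list median of 0.08, with the box H/ACA protein Nop10 at -0.08, the box C/D protein Snu13 at 0.06 and the pseudouridine synthase Dkc1 the highest at 0.33.

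Protons gave a different picture for Snhg6. Its level of 97.7 against 128 CPM in control was a log2 difference of -0.38 (-0.47 to -0.30), with 3.95% of the genes measured lower still. It ranged from -0.69 in barcodes of high Malat1 share to -0.16 with barcodes thinned to 1000 UMIs. Snhg12 differed by -0.04 (-0.15 to 0.06), and its interval held 0. Past 2-fold were 0 of 2 genes, against 0.965% of 4354, whose median was 0.10. Set directly against photons, Snhg6 was lower by -0.35 (-0.43 to -0.28) with 2.51% of genes lower, Snhg12 differed by 0.04 (-0.05 to 0.13), and 0 of 2 genes were past 2-fold against 0.342% of genes. Marker lists moved between the same libraries. Summed cycling markers stood at 557 CPM in control, 355 after photons and 389 after protons. Interferon markers stood at 32.3, 106 and 114, and cornifying markers at 2533, 2229 and 1780. Single cornifying markers went both ways. Sprr3, Ivl and Sbsn were higher than control after photons and after protons, Sprr1a and Krt13 after photons only, and the rest after neither. The part of these markers in the Snhg6 values was not tested. The photon and proton comparisons share the control library, and the size of the difference between 2 untreated libraries was not measured.

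Among other noncoding hosts after protons, Snhg20 stood at -0.97, Snhg18 at -0.26, Epb41l4aos at -0.25 and Snhg16 at 0.00275, a median of -0.26. Here too Snhg20 reached the limit of 20 CPM in control only, at 20.6. Ribosomal protein genes had a median of -0.15, 59 of 76 lower, with Rpl21 the lowest at -0.65. Past 2-fold higher were 2 of the 76, among them Rpl9 at 1.13, against 0.827% of all genes. Protein-coding snoRNA hosts had a median of 0.05, 70 of 114 higher, with the nucleotide synthesis gene Prps2 the highest at 0.83 and the mitotic topoisomerase gene Top2a the lowest at -0.74. Nonsense-mediated decay factors had a median of 0.00329, 6 of 11 higher, with Smg1, the kinase of the pathway, at 0.11. Snhg6 therefore lay below the medians of all 4 lists, while Snhg12 lay between them.

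The 11-day library held far less of both genes than 7-day controls. Snhg6 was 7.76-fold lower, a log2 difference of -2.96 (-3.09 to -2.82) with 0.573% of genes lower, and Snhg12 was 2.36-fold lower at -1.24 (-1.35 to -1.12) with 4.25% of genes lower. Past 2-fold lower were 2 of 2 genes, against 5.71% of 6634 genes, whose median was 0.97. Relative to that median, Snhg6 stood at -3.93 and Snhg12 at -2.21. Restricted to barcodes whose Malat1 share reached 1%, the values were -3.07 for Snhg6 and -1.24 for Snhg12, again 2 of 2 past 2-fold lower against 5.7% of genes. The 11-day and 7-day libraries also differed in animals, run, gene list and software version of the matrix header, and these cannot be told apart from the age of the culture. Marker sums also differed between them. Basal duct markers summed to 11411 CPM in the 7-day control and 6268 at 11 days. The sums were 557 and 285 for cycling and 96.6 and 517 for pro-acinar markers. Single markers went both ways. Krt5, Krt14 and Krt17 were lower at 11 days, while Krt15, Trp63, Itga6 and Itgb4 were higher. Aqp5 fell from 30.8 to 13.6 CPM, while Chrm3, Alcam and Clcn3 rose. Hmgb2, at 184 and 190, did not fall with the other cycling markers. The part of these markers in the result was not tested.

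The other lists went in different directions at 11 days. Of all genes, 5.71% were past 2-fold lower. Past 2-fold lower were 3 of 4 other noncoding hosts, Snhg16 at -2.44, Snhg18 at -1.60 and Epb41l4aos at -1.46, whereas Snhg20 was at 0.36. The ribosomal protein genes had a median of -1.16, 70 of 76 lower and 52 past 2-fold lower, with Rpl13 at -0.92, Fau at -1.43 and Rps29 lowest at -2.02. Rpl27, at 10.8 CPM in the 7-day control and 1461 at 11 days, went the other way at 6.96. Nonsense-mediated decay factors had a median of 1.20 against 0.97 for all genes, with 15 of 17 higher. Past 2-fold higher were 9 of 17, close to the 49% of all genes, among them the endonuclease gene Smg6, at 153 against 18.2 CPM, and Smg1 at 1.77. In barcodes whose Malat1 share reached 1%, the median of the list was 0.85 against 0.75 for all genes. The snoRNA-binding proteins had a median of 0.41, with Fbl, the box C/D methyltransferase, lowest at -0.68. The protein-coding snoRNA hosts had a median of 0.92, close to that of all genes, with 109 of 161 higher, 78 past 2-fold higher and 25 past 2-fold lower, from Timm23 at 5.84 to Cks2 at -1.85.

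Gene length moved with this comparison across all genes. The median log2 ratio at 11 days was 0.12 over 1244 genes that span under 10 kb, 0.94 over 4223 genes from 10 to 100 kb and 2.50 over 1155 genes of 100 kb or more. Both host genes lay below the median of the shortest class, Snhg12 in a model of 2858 bases and Snhg6 in one of 2094 (RefSeq) or 87696 (GENCODE) bases. Recent versions of Cell Ranger count reads in introns by default; whether this was so here is not given in the sources used here, and its part in the result was not tested.

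Over all kept barcodes both genes were lowest in fresh tissue. Snhg6 was 14.7-fold lower than in 7-day controls at -3.88 (-4.28 to -3.50) and Snhg12 13.2-fold lower at -3.72 (-4.18 to -3.28). Past 2-fold lower were 2 of 2 genes, but so were 78.6% of 4250 genes, whose median was -1.79, so the count itself says little about these genes. In tissue and control barcodes whose Malat1 share reached 1%, the values were -2.05 for Snhg6, from 25 tissue UMIs, and -1.83 for Snhg12, from 17, with 29.7% of genes past 2-fold lower. In such barcodes the order of tissue and 11-day mSGOs turned for Snhg6, at 32.6 (21.1 to 48.2) CPM in tissue against 15.5 (14.1 to 16.9), and Snhg12 overlapped, at 22.2 (12.9 to 35.5) against 33.6 (31.6 to 35.7). Ribosomal protein genes had a median of -3.46 over all tissue barcodes, and 4 of 4 other noncoding hosts were past 2-fold lower, from Snhg16 at -5.28 to Snhg20 at -1.12.

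**Figure D2:**
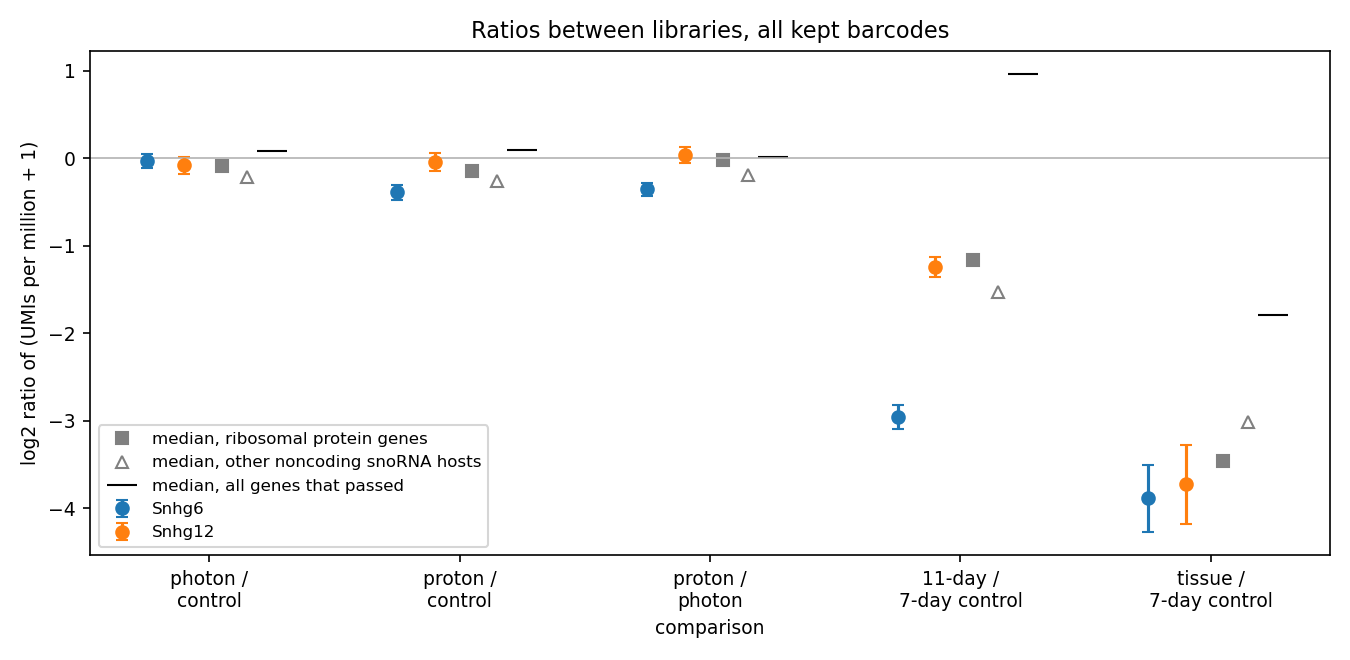
Log2 ratios of CPM plus 1 for Snhg6 and Snhg12 with 95% counting intervals in 5 comparisons, with the medians of ribosomal protein genes, of other noncoding snoRNA hosts and of all genes that passed the count filter. In the proton comparisons Snhg6 lies below 0 and Snhg12 at 0, and at 11 days both lie below 0 while the median of all genes is 0.97.

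Malat1 is an abundant noncoding RNA that is retained in the nucleus, and its share of the UMIs of a barcode was used to class the barcodes. Those whose share reached 1% made up 16.0%, 10.0% and 8.95% of the control, photon and proton 7-day libraries, 98.8% of the 11-day library and 11.3% of tissue. They were also deeper: the median was 5841, 4406.5 and 5345 UMIs in these barcodes against 849, 1016 and 942 in the rest of the 3 7-day libraries. Neat1, the nuclear RNA of paraspeckles, stood at 19.8, 31.9, 822 and 1456 CPM over the classes 0, under 1%, 1 to 5% and at least 5% of the control library.

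Neither host gene showed a step of that size. Snhg6 stood at 123, 120, 145 and 126 CPM over the 4 classes in control, at 133, 131, 119 and 107 after photons, and at 106, 103, 87.9 and 84.0 after protons. Snhg12 stood at 95.7, 78.5, 80.5 and 82.5, at 83.2, 74.9, 82.1 and 74.9, and at 80.7, 81.8, 62.6 and 78.0. After protons Snhg6 in barcodes without a Malat1 UMI (96.0 to 117) and in those of at least 5% (76.4 to 92.2) did not overlap. The barcodes without a Malat1 UMI were shallow, with medians of 789, 870 and 889 UMIs, and RNA free in the droplets was not measured.

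**Figure D3:**
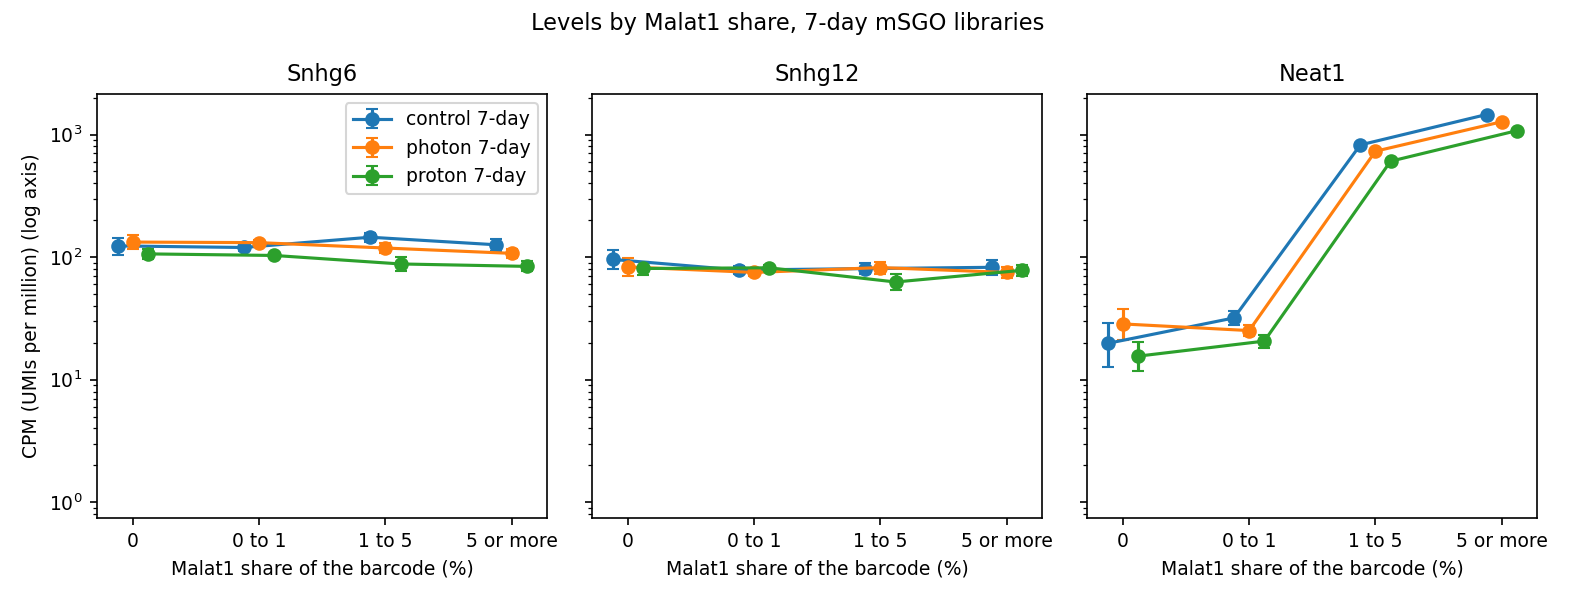
CPM on a log axis with 95% counting intervals for Snhg6, Snhg12 and, as a nuclear reference, Neat1 over 4 classes of Malat1 share in the 3 7-day libraries. Neat1 is at 31.9 or less under a share of 1% and at 605 or more above it, whereas the host genes stay between 62.6 and 145.

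Between barcodes of at least 1% and under 1%, Snhg6 was 138 (129 to 147) against 120 (113 to 128) CPM in control, a log2 difference of 0.20 (0.07 to 0.32). After photons it was 112 (105 to 120) against 131 (126 to 137), a difference of -0.22 (-0.33 to -0.11), and after protons 85.4 (79.2 to 91.9) against 104 (99.0 to 109), a difference of -0.28 (-0.41 to -0.15). The sign in control was opposite to that in both irradiated libraries. It was so also without Malat1 and mitochondrial UMIs in the total, at 0.29, -0.10 and -0.14, but not with the all-gene median subtracted, at -0.09, -0.37 and -0.40. The sign in control turned in 4 of 13 alternatives, which ran from -0.32 to 0.82. Snhg12 differed by 0.01 in control, 0.04 after photons and -0.17 (-0.30 to -0.03) after protons. Past 2-fold were 0 of 2 genes in each library, against 21.5% of genes in control, 10.4% after photons and 10.1% after protons, where the medians of all genes were 0.29, 0.14 and 0.12.

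Depth moved with this contrast. Among barcodes under 2000 UMIs, Snhg6 was lower in the Malat1-rich barcodes, those of 1% or more, in all 3 libraries: 111 (72.6 to 163) against 184 (170 to 199) in control, 95.7 (71.7 to 125) against 147 (140 to 153) after photons and 52.1 (30.9 to 82.3) against 116 (110 to 123) after protons. Among barcodes of 2000 UMIs or more the values in Malat1-rich barcodes were 139 (130 to 148) against 78.4 (71.2 to 86.2), 113 (106 to 121) against 91.3 (82.8 to 100) and 86.8 (80.4 to 93.6) against 77.4 (70.1 to 85.3). The intervals were apart in every one of these pairs but the last, so the contrast turned with depth in the control and photon libraries, while in deep proton barcodes the sides overlapped. In the deep Malat1-rich barcodes the 3 libraries were ordered control, photon, proton with no overlap of intervals, and in the deep Malat1-poor barcodes the control and proton values overlapped. Snhg12 stayed between 66.8 and 89.7 CPM in all 12 of these groups.

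The proton difference of Snhg6 was seen on both sides of the Malat1 threshold, -0.69 (-0.83 to -0.55) at a share of at least 1% and -0.21 (-0.32 to -0.10) under it. After photons the sides differed in sign, -0.30 (-0.43 to -0.16) and 0.13 (0.02 to 0.23). Relative to the median of all genes they did not, at -0.34 and -0.03 after photons, beside -0.72 and -0.40 after protons. Snhg12 differed from control by -0.16 (-0.33 to 0.01) after protons and -0.06 after photons at a share of at least 1%, and by 0.01 and -0.09 under it.

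The same contrast placed other gene groups. Ribosomal protein genes were lower in Malat1-rich barcodes in 66 of 75 genes in control, 72 of 75 after photons and 72 of 76 after protons, with medians of -0.30, -0.33 and -0.36. Mitochondrially encoded transcripts were higher in 12 of 12, 13 of 13 and 13 of 13 genes, with medians of 1.88, 2.90 and 2.62. Nonsense-mediated decay factors were higher in 11 of 14 genes in each library, with medians of 0.62, 0.39 and 0.24. The list of genes chosen as nuclear transcripts had medians of 3.77, 4.41 and 4.48, but it includes Malat1, by which the barcodes were split. Of its genes, 1, Gm42418, stood at -0.72, -1.02 and -1.11, and whether its RNA is nuclear was not measured.

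In the 11-day library only 115 barcodes lay under a Malat1 share of 1%. Snhg1 stood at 154 (117 to 198) CPM there, from 59 UMIs, against 82.5 (79.3 to 85.7) in the rest, and Zfas1 at 99.0 (70.1 to 136), from 38 UMIs, against 56.8 (54.2 to 59.5). Gas5 was 656 (578 to 743) against 529 (521 to 537). These were log2 differences of -0.89 for Snhg1, -0.79 for Zfas1 and -0.31 for Gas5, while Snhg3, Snhg6, Snhg8 and Snhg12 had overlapping intervals. Past 2-fold were 0 of 7 genes, against 12.3% of all genes. Ribosomal protein genes were lower in the Malat1-rich barcodes in 76 of 77 cases, with a median of -0.34.

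The 878 barcodes of the 11-day library with a share of at least 5% can be set against the 8491 barcodes from 1 to under 5%. Snhg1 stood at 65.2 (55.5 to 76.1) against 83.9 (80.6 to 87.3), a difference of -0.36 (-0.59 to -0.13), and Snhg8 at 33.6 (26.8 to 41.7) against 44.0 (41.6 to 46.5), a difference of -0.38 (-0.71 to -0.07). The other 5 genes, Gas5, Zfas1, Snhg3, Snhg6 and Snhg12, differed by between -0.11 and 0.05. Past 2-fold were 0 of 7 genes, against 0.448% of all genes.

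In tissue the few UMIs gathered in Malat1-rich barcodes. Snhg6 had 25 UMIs there, 32.6 CPM (21.1 to 48.2), against 21 UMIs, 4.06 CPM (2.52 to 6.21), in the rest, and Snhg12 had 17, 22.2 CPM (12.9 to 35.5), against 14, 2.71 CPM (1.48 to 4.55). The median of all genes with enough counts was 1.76, and all 72 ribosomal protein genes measured were higher. By cluster, the pair had 16 UMIs in the 63 barcodes called endothelial-like, 70.9 CPM (40.5 to 115), and 18 UMIs in 48 barcodes led by S100a8, Retnlg and S100a9, 55.6 CPM (32.9 to 87.8). The 309 acinar-like barcodes, led by Dcpp1, Dcpp2 and Dcpp3, held 1 UMI of the pair, 1.17 CPM. An unnamed cluster of 122 barcodes, with the acinar marker Smgc among its leading genes, held 20 UMIs of the pair, 8.75 CPM (5.34 to 13.5). The 48 T and NK-like barcodes held 5, 38.1 CPM (12.4 to 88.8). That interval overlapped those of the endothelial-like barcodes and of the barcodes led by S100a8.

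The 7-day barcodes were clustered without the host genes, Malat1 and mitochondrial genes. They fell into 5 large clusters, none of which reached a cell type name from the markers used. Cluster 3 (5236 barcodes, led by Rpgrip1 and Slc39a1, median of 2829 UMIs) was poorest in Malat1, with a median share of 0.0706%. Cluster 4 (2817 barcodes, led by Neat1, Kcnq1ot1 and Xist, median of 6731 UMIs) held a median share of 5.11% and cluster 5 (1158 barcodes, led by Tsix) 15.8%. Clusters 1 and 2, with 14738 and 13468 barcodes, were shallow and led by AY036118, and cluster 1 held 975 barcodes of the control against 7734 of the photon and 6029 of the proton library.

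Snhg6 differed between these clusters and Snhg12 much less. In control mSGOs Snhg6 stood at 167 (141 to 195) CPM in cluster 1, 190 (174 to 208) in cluster 2, 76.4 (69.1 to 84.2) in cluster 3, 144 (135 to 154) in cluster 4 and 82.7 (61.2 to 109) in cluster 5. After protons it stood at 122 (113 to 131), 110 (101 to 120), 79.1 (71.9 to 86.7), 88.6 (82.0 to 95.6) and 62.6 (47.0 to 81.6). The proton value was thus below control without overlap in clusters 1, 2 and 4 and overlapped it in clusters 3 and 5. After photons Snhg6 lay between the other libraries in clusters 1, 2 and 4, at 153, 143 and 116. In cluster 3 the photon value of 93.4 (85.5 to 102) was above control without overlap, the opposite of clusters 2 and 4, and in cluster 5 it was 88.6 (72.2 to 108), overlapping control. Snhg12 ran from 64.2 to 102 over all clusters and libraries, and its control and proton intervals overlapped in all 5 clusters.

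**Figure D4:**
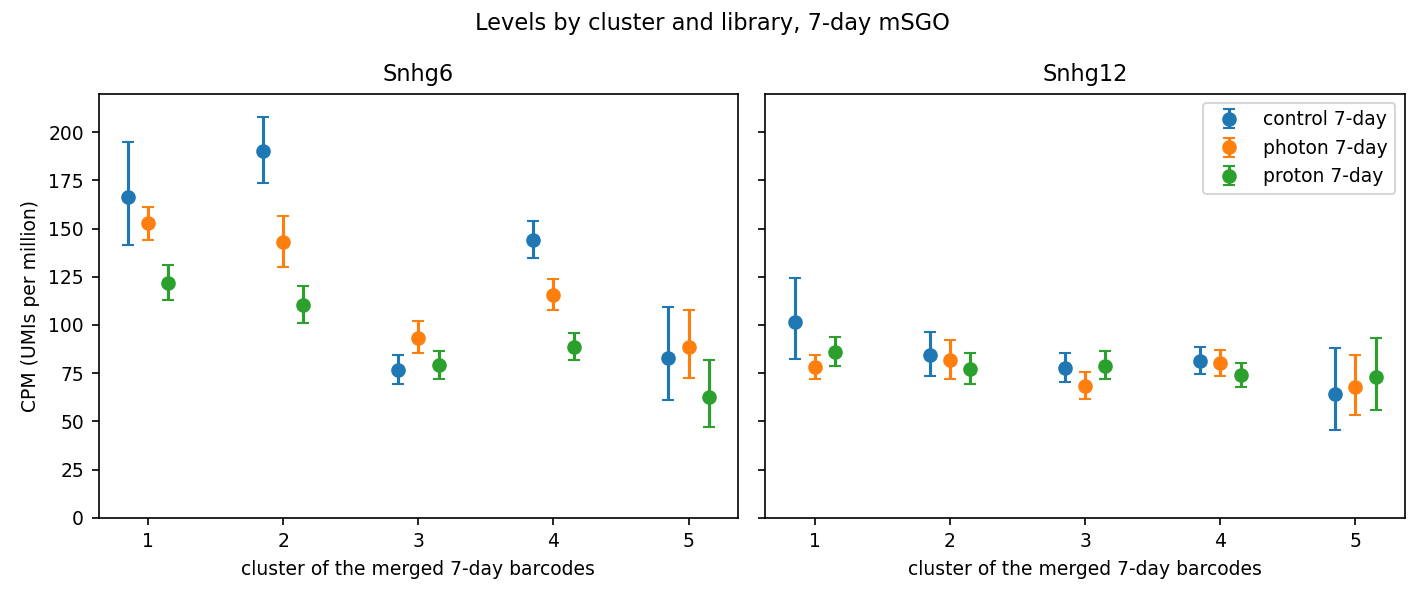
CPM with 95% counting intervals for Snhg6 (left) and Snhg12 (right) in the 5 large clusters of the merged 7-day barcodes, by library. In clusters 1, 2 and 4 Snhg6 is lower after protons than in control without overlap, and in cluster 3 it is higher after photons (93.4) than in control (76.4) without overlap.

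At 11 days, 10 of 12 clusters had at least 500000 UMIs. The 7 genes summed to between 518 CPM in cluster 8, called striated or granular duct-like and led by Klk1b11, Crisp3 and Klk1, and 1254 in cluster 7, led by Acta2, Igfbp2, Chil1 and Pip and left unnamed, a 2.42-fold range. Of the 7 genes, 4 were highest in cluster 7: Gas5 at 832 against 311 in cluster 8, Zfas1 at 107 against 37.6 in cluster 8, Snhg8 at 76.6 against 21.6 in cluster 8 and Snhg6 at 27.1 against 9.99 in cluster 1. Only Gas5 (772 to 896) stood there apart from the rest of the 10 clusters. Snhg6 (17.2 to 40.7) overlapped all the others of these clusters but cluster 1 (7.59 to 12.9). Zfas1 (86.3 to 132) overlapped cluster 3 (74.1 to 89.2). Snhg8 (59.1 to 97.6) overlapped clusters 5 (44.5 to 59.8) and 10 (33.0 to 65.8). Snhg1 was highest in the cycling-like cluster 10, at 138 (112 to 167), overlapping cluster 7 at 127 (104 to 154) and cluster 3 at 120 (111 to 130), and lowest in cluster 4, at 55.9 (48.3 to 64.3). Snhg8 had the widest range, 3.55-fold, and Snhg3 the narrowest, 1.67-fold, from 30.2 to 50.3.

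Ribosomal protein genes summed to 120806 CPM in cluster 8 and 245182 in cluster 7, the same 2 clusters at the ends, and the other host Epb41l4aos ran from 34.8 to 115 there. Across the 10 clusters, which share 1 library and differ in depth, the correlation with that sum was 0.941 for Snhg8, 0.847 for Zfas1, 0.819 for Gas5, 0.707 for Snhg1, 0.650 for Snhg6, 0.612 for Snhg12 and 0.134 for Snhg3. With Malat1 it was -0.786 for Snhg6 and -0.662 for Snhg1, and -0.0655 for the sum of the 7 genes. These are descriptions of 10 points each.

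**Figure D5:**
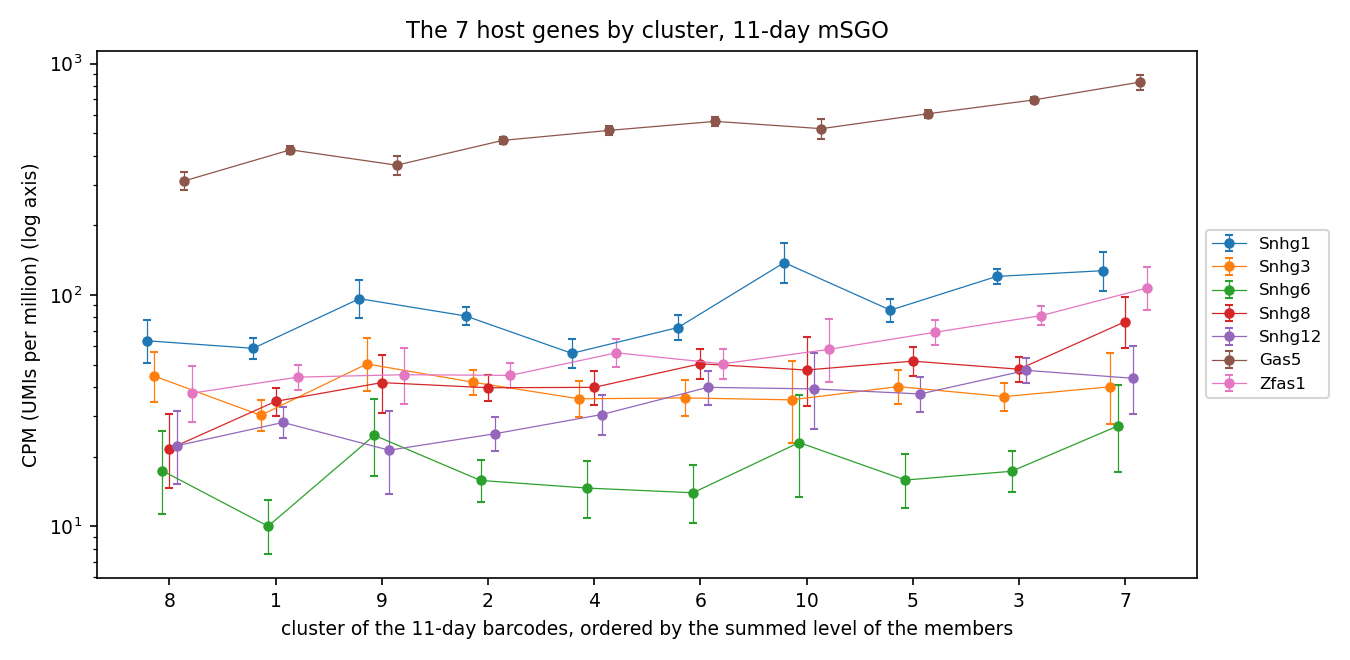
CPM on a log axis with 95% counting intervals for the 7 genes in 10 clusters of the 11-day library, ordered by the summed level. Gas5 runs from 311 in cluster 8 to 832 in cluster 7, whereas Snhg3 stays between 30.2 and 50.3.

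The genes most like the pair were sought over 18 profiles, each a library and a class of Malat1 share, among 8172 genes. The Pearson correlation with the summed level of Snhg6 and Snhg12 was 0.991 for the small heat shock gene Hspb1, 0.991 for Rplp2, 0.990 for Rpl5, 0.989 for the polyamine enzyme gene Sat1 and 0.988 for Rps26. It was 0.977 for the host gene Epb41l4aos but 0.107 for Malat1 and 0.0472 for Neat1. The profiles come from 5 libraries and share their depth, so these values describe the 3 levels of 7-day, 11-day and tissue libraries more than differences within a library.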

How the data were processed

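The deposited matrices held UMI counts per gene and barcode, not normalized, which the authors made with Cell Ranger. The processing notes name version 5 and mm10, the study's methods GRCm39, and the matrix headers version 3.0.1 (7-day, tissue) and 7.0.0 (11-day). Barcodes with at least 200 genes and at most 5% mitochondrial UMIs were kept; the study's limit of 2500 genes was an alternative. Doublets were removed as the highest Scrublet scores, up to 0.8% per 1000 barcodes (378, 2674, 2559, 855 and 16 in the control, photon, proton, 11-day and tissue libraries). Counts were summed per library and divided by the total (CPM). Intervals are exact at 95% (Poisson for levels, binomial for ratios) and cover counting error only. Ratios used a pseudocount of 1 CPM. The median and percentages over all genes used genes with at least 200 UMIs in the groups compared and 20 CPM in the higher one, in comparisons between gene lists over 30406 shared genes. Barcodes were clustered (scanpy 1.11.5, 2000 variable genes, 30 components, Leiden resolution 0.8). Genes named within a list were its most abundant and its highest and lowest. The members and lists were chosen with earlier results of these data known. The ratio and its interval were tested on simulated data. Alternatives covered filters, depth, weighting, scaling and thresholds.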

Additional observations from a re-analysis of the deposited data

Results flagged for a closer look

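The Malat1 contrast of Snhg6 had opposite signs in libraries of the same age: 0.20 (log2, barcodes with a share of at least 1% against under 1%) in control, -0.22 after photons and -0.28 after protons. Relative to the median of all genes these were -0.09, -0.37 and -0.40, all of the same sign, and the sign turned in 4 of 13 alternatives in control and 2 of 13 in each irradiated library. The sum of Snhg6 and Snhg12 followed, at 0.12, -0.12 and -0.23. Fresh tissue stood at 2.73 for Snhg6, 2.64 for Snhg12 and 2.84 for the sum, against -0.17 for Snhg12 after protons. These differences between libraries were not tested, because each group was a single library. The sign of Snhg6 also differed between barcodes under and over 2000 UMIs in the control and photon libraries, whereas in deep proton barcodes the intervals of both sides overlapped.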

How the results depend on the processing

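The values are log2 ratios of the sum of Snhg6 and Snhg12 (of the 7 genes within the 11-day library). With barcodes weighted equally, the sum was -0.18 for photons, -0.36 for protons, -2.30 at 11 days and -4.23 in tissue, and the Malat1 contrast -0.22 in control, -0.26 after photons and -0.38 after protons. With at least 2500 genes it was -0.24 for photons, -0.40 for protons and -4.64 in tissue, and the contrast 0.58 in control, 0.70 after photons and -0.85 at 11 days. With at least 2000 UMIs it was -1.93 at 11 days, and the contrast 0.51, 0.28 and 0.019 in control, photon and proton libraries. Thinned to 1000 UMIs it was 0.079 for photons and -3.23 in tissue, and the contrast -0.23 after photons and -0.75 at 11 days. Relative to the median of all genes it was -0.14 for photons, -0.34 for protons, -3.03 at 11 days and -2.12 in tissue, and the contrast -0.17, -0.26 and -0.35 in the 7-day libraries and 1.09 in tissue. Relative to the median of genes with at least 1 UMI it was -2.46 at 11 days and -3.48 in tissue, and the contrast -0.075, -0.28 and -0.36, -0.57 at 11 days and 1.06 in tissue. In barcodes whose Malat1 share reached 1% it was -0.20 for photons, -0.47 for protons, -0.27 for protons against photons and -1.98 in tissue. Without Malat1 and mitochondrial UMIs the contrast was 0.00398 after photons and -0.093 after protons. At a Malat1 threshold of 2% it was -0.095 at 11 days and 1.74 in tissue. Chosen after seeing the data were a threshold of 5%, giving -0.00336 in control, -0.084 at 11 days and 0.70 in tissue, and a scaling to genes under 10 kb, giving -2.17 at 11 days. Of single genes, Snhg6 in tissue was -3.14 at a threshold of 5% and Snhg12 -1.41 with at least 2500 genes, both from 0 UMIs of the gene in the Malat1-rich barcodes, so that the pseudocount sets the value and no direction can be read. The cause of the other shifts was not tested. The proton value of Snhg6 ran from -0.69 to -0.16 and kept its sign under all 11 alternatives. No paired analysis was possible because each group was 1 library. Over all kept barcodes tissue values rest on 46 and 31 UMIs, and the sum at 5% in tissue on 1 UMI in 15 Malat1-rich barcodes.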
